A study of Mus musculus with 24 samples.

Results

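Metabotropic glutamate receptors are the G protein-coupled receptors for glutamate, the main excitatory transmitter of the cortex. The 6 genes described here, Grm2, Grm3, Grm4, Grm5, Grm7 and Grm8, were taken by name from 55414 genes counted in mouse visual cortex. All 6 passed the filter on low counts, among 14464 genes tested. The family has 3 groups. Group I, here Grm5, couples to Gq, phospholipase C and calcium release, and lies mainly after the synapse, held there by Homer and Shank scaffolds. Group II (Grm2, Grm3) and group III (Grm4, Grm7, Grm8 and the retinal gene Grm6) couple to Gi/o proteins and lower cyclic AMP. Grm2, Grm4, Grm7 and Grm8 act mainly on axon terminals, where they reduce transmitter release, and Grm3 is also strong in astrocytes. The group II receptors have long been studied together with the serotonin receptor Htr2a, through which psilocin, the active product of psilocybin, acts in cortex.

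The 24 libraries were polyA RNA-seq of visual cortex from male C57BL/6J mice of 8 weeks (the study's methods give up to 10 weeks), kept on a reversed light cycle, 6 mice per group. The dark group received vehicle and stayed in darkness, the light group received vehicle and light, and the psilocybin-dark and psilocybin-light groups received 5 mg/kg psilocybin by intraperitoneal injection with darkness or light. Tissue was taken at 2.5 h. The comparisons ask how each receptor gene's RNA differed with light, with the drug and with both. Mice are named by group and by library number, 1 to 24.

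The grouping carries a conflict that touches every comparison below, those of the drug with dark included. For all 24 libraries the headings of the study's count table and the sample labels give opposite light exposure and the same drug. Groups here follow the headings. Under the labels, dark and light change places within the vehicle mice and within the psilocybin mice, and the sign of each light-against-dark value turns. The psilocybin groups are then compared with the other vehicle group, so that Grm3 in psilocybin-dark against dark, the firmest call below, reads -0.035 (edgeR adjusted p = 0.971) and no receptor gene is called in either comparison of psilocybin mice with dark. The mice that gave the firmest call are then compared as psilocybin-light against light. Their Grm3 difference is unchanged there, at 0.52 (edgeR adjusted p = 0.00213), and is the 1 receptor gene call of that comparison.

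Library totals ran from 13552516 to 17906994 counts, a median of 16235866. Markers of other brain regions differed among the libraries. The summed normalized counts of 8 cerebellum markers were 13548 to 49425 in 4 libraries (dark mice 1 and 6, psilocybin-dark mouse 12 and light mouse 18) and 308 to 1416 in the other 20. Gabra6, a cerebellar granule cell receptor subunit, read 2170 to 7131 in those 4 and 0 to 106 elsewhere. The 7 amygdala and hypothalamus markers summed to 885 in dark mouse 6 and to 3259 to 8556 in dark mice 1 to 5, against 668 to 1493 in the 18 mice of the remaining groups. The 8 hippocampus markers summed to 4161 to 7494 in the dark group, 1762 to 4385 in light, 1653 to 4471 in psilocybin-dark and 1848 to 2963 in psilocybin-light mice. The 8 cortical excitatory markers were present in every library, at sums of 29562 to 91430 in the dark group and 67335 to 97524 in the others. Of these lists, 7 of 7 amygdala and hypothalamus markers were lower in each of the 3 comparisons with dark, and 4 of 8 cortical markers were higher. All comparisons with dark share the 6 dark mice, so dissected tissue content and treatment cannot be told apart in them. In whole tissue, fewer cells of a type and less RNA per cell cannot be told apart either.

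Levels were set between genes per length, as CPM (counts scaled to a common library total) per kilobase of merged exons, over all 24 libraries. Grm5 (ENSMUSG00000049583, chr7:87233376-87784594, plus strand, GRCm39) was the most abundant at 23.0 ± 6.42 (SD, n = 24). Next came Grm7 (ENSMUSG00000056755, chr6:110622542-111544191, plus strand) at 10.3 ± 1.34, Grm2 (ENSMUSG00000023192, chr9:106520294-106533870, minus strand) at 9.80 ± 2.47 and Grm3 (ENSMUSG00000003974, chr5:9534069-9776088, minus strand) at 8.41 ± 1.52. Neighbours among these 3 differed in mean by less than the larger of their SDs. Grm4 (ENSMUSG00000063239, chr17:27641361-27740377, minus strand) had a mean of 9.26 ± 11.2 and a median of 4.99, because 4 libraries stood far above the rest. Grm8 (ENSMUSG00000024211, chr6:27275118-28135177, minus strand) was lowest at 2.02 ± 0.40. Grm6, outside the 6, had 1.00 normalized count at most in a library and was not tested. Grm7 shares 600 exon bases with Gm20387 on the opposite strand (mean count 22.5 per library) and Grm2 shares 475 with Gm28111 (0.58). Whether the counting used strand is not given in the sources used here.

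**Figure D1:**
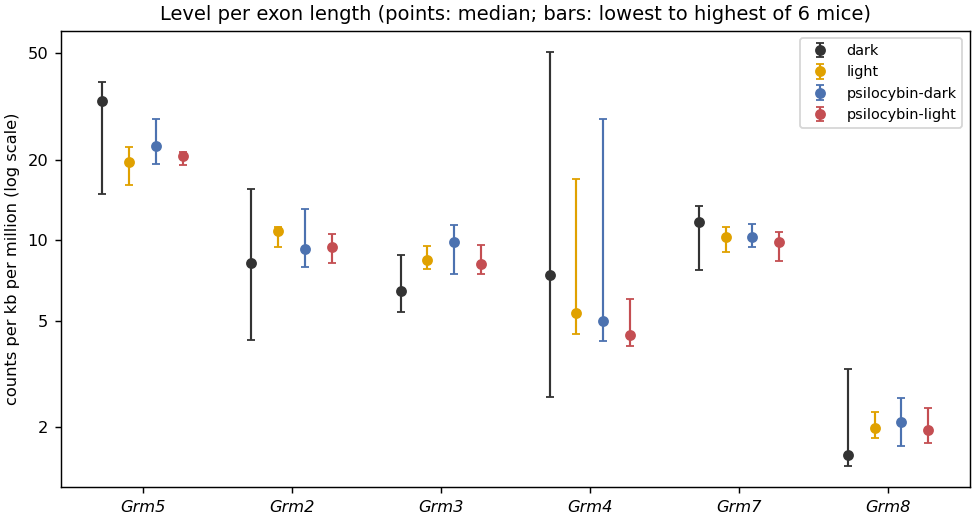
Level of the 6 receptor genes in CPM per kilobase of merged exons (log axis), by group; points are medians and bars run from the lowest to the highest of 6 mice. Grm5 has the highest and Grm8 the lowest medians, and the dark group has the widest bar on the log axis for each of the 6 genes.

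Grm5 encodes mGlu5, the main Gq-coupled receptor of the family in adult forebrain. Its normalized counts in dark mice 1 to 6 were 3041, 6321, 6710, 5947, 5440 and 2557. Light mice ranged from 2769 to 3831 with a median of 3386, psilocybin-dark mice from 3308 to 4895 (median 3883), and psilocybin-light mice from 3281 to 3690 (median 3566). The dark group thus fell into 4 mice above every mouse of the other 3 groups and 2 mice (1 and 6) in or below their range, so no pair of groups with dark was free of overlap.

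In light against dark Grm5 was lower by edgeR's quasi-likelihood test, with a log2 fold change of -0.58 ± 0.17 (SE) and a Benjamini-Hochberg adjusted p of 0.0136. Psilocybin-light against dark gave -0.51 ± 0.17 (adjusted p = 0.0234), and psilocybin-dark against dark -0.33 ± 0.17 (adjusted p = 0.171), which did not pass. The two-sided exact permutation test of 6 mice against 6, which can reach 0.00216 at the lowest, gave unadjusted p = 0.0714, 0.102 and 0.346 in the same order. The calls of the model across all genes therefore did not pass the exact test.

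The direction depended on which dark mice entered the fit. Dark mice 1 and 6 are 2 of the 4 libraries with the high cerebellum sums. Without those 4 libraries Grm5 averaged 6105 ± 542 in dark (n = 4), 3473 ± 257 in light (n = 5), 4112 ± 569 in psilocybin-dark (n = 5) and 3516 ± 162 in psilocybin-light mice (n = 6). The log2 fold changes were then -0.81, -0.57 and -0.79, all passing the test (edgeR, largest adjusted p = 1.67e-05). With dark mice 2 to 5 left out instead, against mice 1 and 6 alone, the values turned to 0.26, 0.51 and 0.34. With the amygdala and hypothalamus markers as a covariate they were -0.08, 0.16 and 0.01, none passing. With the hippocampus markers as a covariate they were -0.46, -0.22 and -0.38, and over the compared groups alone -0.58, -0.33 and -0.50, none passing in either fit (adjusted p = 0.492 and 0.615, and 0.0771 and 0.0886, for the comparisons that had passed). With the cerebellum markers as a covariate they were -0.80, -0.48 and -0.80, all passing (edgeR, largest adjusted p = 0.00693). The light call stayed in 24 of 24 fits that left out 1 mouse. The psilocybin-light call was lost without dark mouse 2 (-0.43, adjusted p = 0.0603), 3 (-0.41, 0.0686) or 4 (-0.45, 0.0530), 21 of 24 such fits keeping it.

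Grm2 and Grm3 form group II. Grm2 encodes mGlu2, an autoreceptor of glutamatergic terminals. Its counts in dark mice 1 to 6 were 481, 691, 1761, 656, 1183 and 1488. Light mice stayed between 1074 and 1271 (median 1231), psilocybin-dark mice between 901 and 1485 (median 1049) and psilocybin-light mice between 933 and 1200 (median 1076). The dark mice enclosed the range of every other group, with a coefficient of variation of 49.3% against 6.33% in light. Mean levels were 1043 ± 514 in dark and 1203 ± 76.1 in light mice (SD, n = 6 each). The log2 fold changes against dark were 0.21 ± 0.22 for light, 0.12 ± 0.22 for psilocybin-dark and 0.04 ± 0.22 for psilocybin-light, none passing the test (edgeR, smallest adjusted p = 0.510).

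Grm3 encodes mGlu3, which responds to glutamate and to the peptide transmitter N-acetylaspartylglutamate (NAAG). Its counts were 583, 737, 955, 622, 929 and 659 in dark mice 1 to 6. In psilocybin-dark mice 7 to 12 they were 1039, 1194, 1095, 1240, 1039 and 812. Of the psilocybin-dark mice 5 of 6 lay above every dark mouse, and mouse 12, one of the libraries with high cerebellum markers, lay within the dark range. Light mice ran from 843 to 1030 (median 917) and psilocybin-light mice from 809 to 1041 (median 880), 2 mice of each above every dark mouse.

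Grm3 was higher in psilocybin-dark than in dark mice, at 1070 ± 151 against 748 ± 159 (SD, n = 6), a log2 fold change of 0.52 ± 0.11 (edgeR adjusted p = 0.00213) and an exact permutation p of 0.0108. Light against dark gave 0.31 ± 0.11 (adjusted p = 0.0403, exact permutation p = 0.0411), and psilocybin-light against dark 0.28 ± 0.11 (adjusted p = 0.0586, exact permutation p = 0.0584), which did not pass. The change with light differed between drug and vehicle. Light under psilocybin against darkness under psilocybin was -0.24 ± 0.11 (adjusted p = 0.241), and the interaction, that change minus the change in vehicle mice, was -0.55 ± 0.16 (edgeR adjusted p = 0.0364). Grm3 was the 1 receptor gene of 6 called for the interaction, where 8.75% of all genes tested were called.

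Of these, the psilocybin-dark call stayed when any 1 of the 24 mice was left out (0.46 to 0.60). The light call stayed in 17 of 24 such fits and rose to an adjusted p of 0.0935 without dark mouse 4, and the interaction stayed in 10 of 24, with an adjusted p of 0.0699 without psilocybin-dark mouse 10. Psilocybin-light against dark, not called in the main fit, passed in 3 of 24 such fits. It also passed by DESeq2's Wald test over all 24 mice, at 0.28 (adjusted p = 0.0468). Without the 4 libraries with high cerebellum sums Grm3 had 0.22 for light (adjusted p = 0.0885), 0.47 for psilocybin-dark (0.00132), 0.17 for psilocybin-light (0.173) and -0.52 for the interaction (0.00888). With the hippocampus markers as a covariate the values against dark were -0.01, 0.19 and -0.09, and with the amygdala and hypothalamus markers 0.12, 0.32 and 0.08, none passing. The interaction was then -0.27 (adjusted p = 0.748) and -0.37 (adjusted p = 0.451), and without the filter on low counts it was -0.55 (adjusted p = 0.0593). Grm3 is strong in astrocytes, and the 7 astrocyte markers summed to 35600 to 53920 in dark, 31285 to 45080 in light, 30254 to 45730 in psilocybin-dark and 29213 to 37643 in psilocybin-light mice. In psilocybin-dark against dark 1 of these 7 was higher and 2 were lower, and their part in the Grm3 result was not tested.

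RefSeq promoters (250 bases before to 50 after a start site, GRCm38.p6) were matched by symbol for 4 of the 6 genes (Grm2, Grm3, Grm7 and Grm8), 7 promoters in all. They were read for letters bound by factors that neuronal activity induces or activates, on both strands. The cyclic AMP response element TGACGTCA, held by 1.79% of 32851 promoters, the AP-1 motif TGAGTCA (5.20%) and the EGR motif GCGTGGGCG (0.612%) were in 0 of the 7. The G form of the EGR motif, GCGGGGGCG (2.91% of promoters), was in 1 of 7, that of Grm3. It is shown with the motif in capitals, which begins 4 bases before the start site, at chr5:9725303-9725602 on the minus strand. A match describes the letters and is not evidence of binding.
Grm3 promoter: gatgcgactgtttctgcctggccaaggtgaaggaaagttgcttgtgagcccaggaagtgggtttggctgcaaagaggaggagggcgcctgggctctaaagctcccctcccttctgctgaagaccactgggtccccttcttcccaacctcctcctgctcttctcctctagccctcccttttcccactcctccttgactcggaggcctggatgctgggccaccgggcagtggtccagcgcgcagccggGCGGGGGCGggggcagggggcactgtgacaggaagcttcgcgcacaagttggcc

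Grm4, Grm7 and Grm8 form group III. Grm4 encodes mGlu4, which is best known from parallel fibre terminals of cerebellar granule cells. Its counts in dark mice 1 to 6 were 3031, 285, 873, 311, 747 and 5543. In light mice 13 to 18 they were 509, 663, 488, 631, 544 and 1858, and in psilocybin-dark mice 7 to 12 they were 545, 461, 583, 550, 535 and 3111. Psilocybin-light mice ran from 440 to 659 with a median of 485. The 4 highest values, 1858 to 5543, were those of the 4 libraries with the high cerebellum sums, and the other 20 lay between 285 and 873.

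Grm4 passed the test in psilocybin-light against dark, at -1.79 ± 0.64 (edgeR adjusted p = 0.0297), with an exact permutation p of 0.264. It was -1.20 ± 0.62 in light against dark and -0.90 ± 0.62 in psilocybin-dark against dark, neither passing (adjusted p = 0.147 and 0.308). The call moved with the cerebellum markers, of which 8 of 8 were lower in psilocybin-light against dark. Without the 4 libraries Grm4 averaged 554 ± 300 in dark (n = 4), 567 ± 76.6 in light (n = 5), 535 ± 45.0 in psilocybin-dark (n = 5) and 521 ± 90.9 in psilocybin-light mice (n = 6). The log2 fold changes were then 0.04 ± 0.24, -0.05 ± 0.24 and -0.07 ± 0.23, none passing. With the cerebellum markers as a covariate they were 0.54, 0.32 and 0.43 (adjusted p = 0.162, 0.417 and 0.292). Without dark mouse 6 alone the psilocybin-light value was -1.01 (adjusted p = 0.171).

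**Figure D2:**
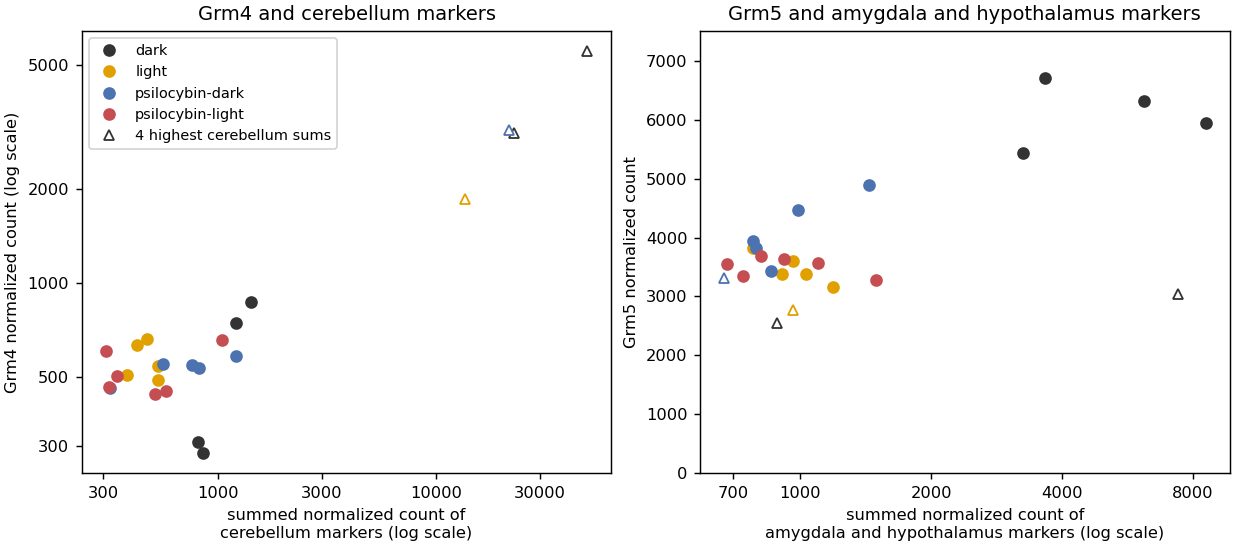
Left, Grm4 against the summed cerebellum markers, and right, Grm5 against the summed amygdala and hypothalamus markers, in normalized counts per mouse (log axes except for Grm5); open triangles are the 4 libraries with the highest cerebellum sums. Grm4 is at 1858 or more in those 4 libraries only, and the 4 mice with Grm5 at 5440 or more are dark mice with marker sums of 3259 or more, while dark mouse 1 has a sum of 7405 and a Grm5 count of 3041.

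Grm7 encodes mGlu7, a receptor of the presynaptic active zone. Its counts in dark mice 1 to 6 were 732, 1117, 1270, 1087, 1191 and 766. Light mice ran from 851 to 1060 (median 973), psilocybin-dark mice from 890 to 1087 (median 969) and psilocybin-light mice from 788 to 1012 (median 929). As for Grm5, dark mice 1 and 6 were low and the other 4 were at or above the top of the other groups. Log2 fold changes against dark were -0.09 ± 0.11 for light, -0.07 ± 0.11 for psilocybin-dark and -0.16 ± 0.11 for psilocybin-light, none passing (edgeR, smallest adjusted p = 0.248). When the 4 libraries were left out they were -0.24, -0.23 and -0.33, all passing (largest adjusted p = 0.00888), and with dark mice 2 to 5 left out they turned to 0.37, 0.39 and 0.30, all passing as well.

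Grm8 encodes mGlu8, a high-affinity terminal receptor. Its counts were 248, 252, 523, 237, 349 and 227 in dark mice 1 to 6. Light mice ran from 288 to 361 (median 316), psilocybin-dark mice from 269 to 409 (median 333) and psilocybin-light mice from 276 to 374 (median 310). Dark mouse 3 had the highest value of all 24, and the median of the dark group, 250, was the lowest. Log2 fold changes were 0.07 ± 0.16, 0.15 ± 0.16 and 0.06 ± 0.16, none passing (edgeR, smallest adjusted p = 0.535).

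**Figure D3:**
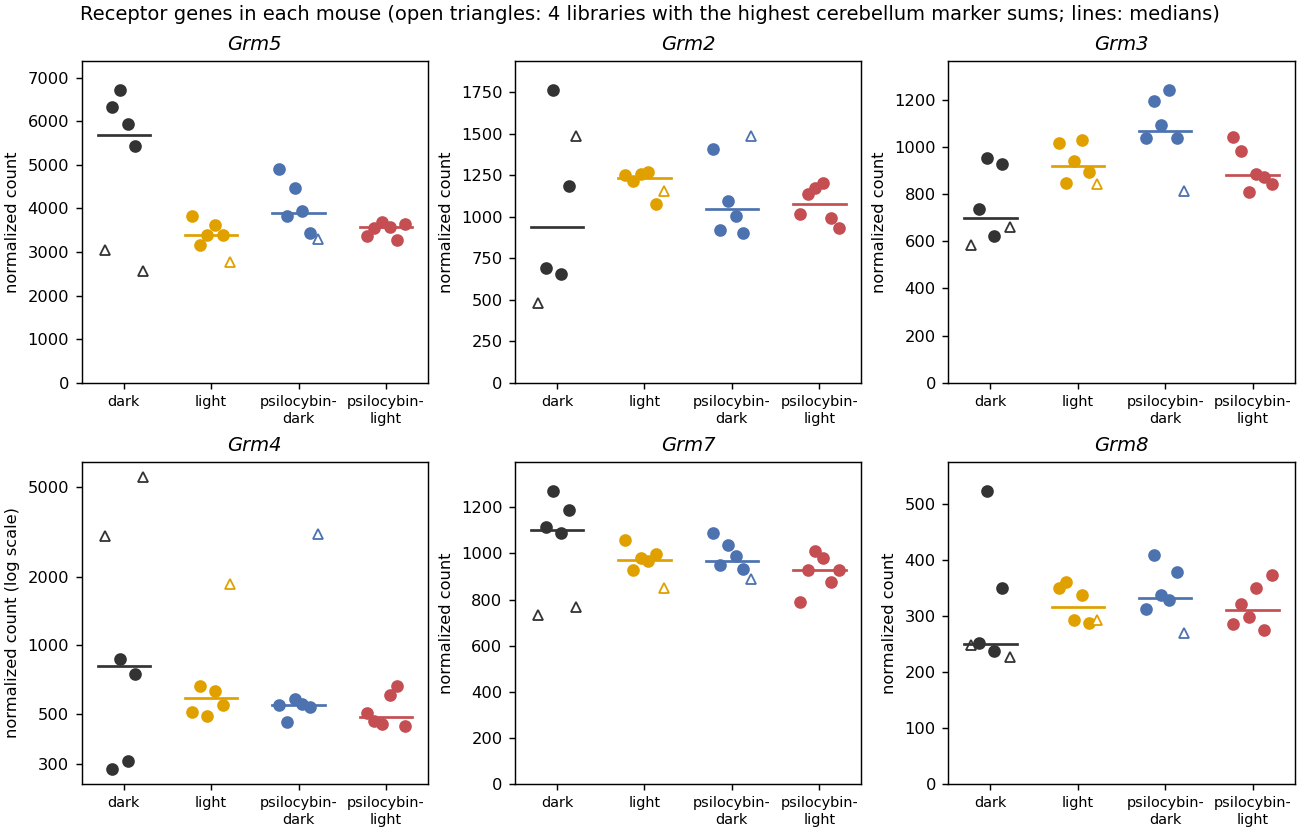
Normalized counts of the 6 receptor genes in each of the 24 mice by group (log axis for Grm4 only); lines are group medians and open triangles the 4 libraries with the highest cerebellum marker sums. Grm5 is at 5440 or more in 4 dark mice, Grm3 is at 1039 or more in 5 of 6 psilocybin-dark mice, and Grm4 is at 1858 or more in the open triangles.

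Counted over the 6 genes, 2 of 6 were called in light against dark (Grm3 higher, Grm5 lower), where 31.9% of all genes tested were called. In psilocybin-dark against dark 1 of 6 was called (Grm3), against 24.7% of all genes, and in psilocybin-light against dark 2 of 6 (Grm4 and Grm5, both lower), against 38.4%. These shares were near the background, so the count itself sets the receptor genes apart from other genes in none of the 3 comparisons. The median log2 fold changes of the 6 were -0.01, 0.03 and -0.06, beside -0.01, -0.02 and -0.02 over all genes tested. For 0 of the 6 genes were the groups free of overlap in any of these comparisons, against 10.0%, 5.58% and 15.8% of all genes. In the fit of the other 20 libraries 2, 3 and 2 of 6 were called, against 43.1%, 38.3% and 48.2% of 14135 genes.

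**Figure D4:**
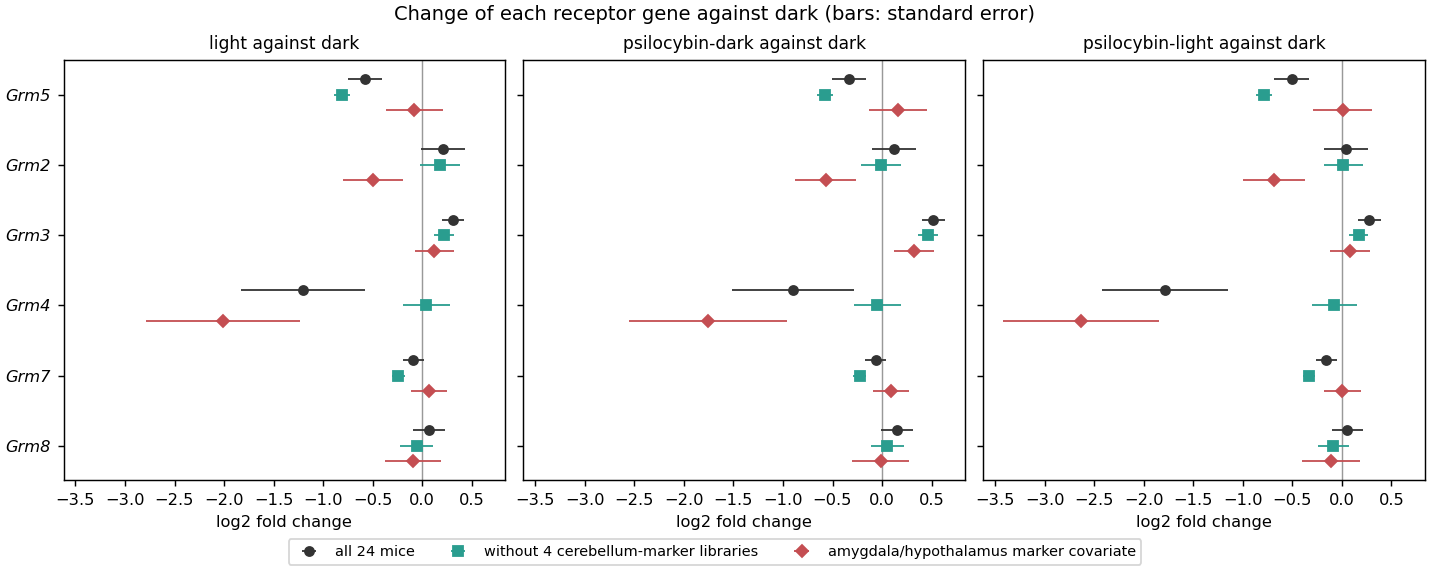
Log2 fold change of each receptor gene against dark, with standard error bars, from all 24 mice (circles), without the 4 libraries with the highest cerebellum sums (squares) and with the amygdala and hypothalamus markers as a covariate (diamonds). Grm4 moves to between -0.07 and 0.04 without the 4 libraries, Grm5 moves to between -0.08 and 0.16 with the covariate, and Grm3 stays above 0 in all 9 fits shown for it.

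The comparisons that leave out the dark group gave no call by edgeR's quasi-likelihood test in the fit of all 24 libraries. The dark mice still enter that fit's estimate of the spread of each gene. In psilocybin-light against light 0 of 6 were called against 0.608% of all genes (0 at an unadjusted edgeR p under 0.05, and 0 by DESeq2), with values of -0.16 for Grm2, -0.04 for Grm3, -0.59 for Grm4, 0.07 for Grm5, -0.07 for Grm7 and -0.01 for Grm8. The exact permutation test gave Grm2 an unadjusted p of 0.0476 in that comparison. In psilocybin-light against psilocybin-dark 0 of 6 were called against 6.38% (1 at an unadjusted edgeR p under 0.05, Grm3, and 0 by DESeq2). There the values were -0.08 for Grm2, -0.24 for Grm3, -0.89 for Grm4, -0.18 for Grm5, and -0.09 for both Grm7 and Grm8. In psilocybin-dark against light 0 of 6 were called against 0.456% (0 unadjusted and 0 by DESeq2), and the values lay between -0.08 for Grm2 and 0.30 for Grm4, with 0.20 for Grm3 and 0.25 for Grm5. Over the compared groups alone the standard error for Grm2 in psilocybin-light against light was 0.065, beside 0.221 in the fit of all 24 libraries. No receptor gene passed in these comparisons there either (edgeR, smallest adjusted p = 0.106, Grm3 in psilocybin-light against psilocybin-dark). Over the 20 libraries without high cerebellum sums Grm3 passed in psilocybin-light against psilocybin-dark, at -0.30 (adjusted p = 0.0307). The interaction does use the dark group. For it the 5 further genes had -0.29 (Grm2), 0.31 (Grm4), 0.40 (Grm5), -0.0027 (Grm7) and -0.16 (Grm8), none passing. Over those 20 libraries Grm5 also passed for the interaction, at 0.60 ± 0.11 (adjusted p = 0.000605). Of 11 alternatives besides the labels and single mice left out, 4 called it, the fit over those 20 libraries among them. Also among the 4 was the fit without dark mice 2 to 5, with the opposite sign at -0.43 (edgeR adjusted p = 0.0435). With the amygdala and hypothalamus markers as a covariate the Grm5 interaction was -0.08 (adjusted p = 0.930).

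The wider pathway was read from lists of 61 genes, 60 of them tested. In light against dark 12 were higher and 11 lower, in psilocybin-dark against dark 12 and 6, and in psilocybin-light against dark 11 and 17. The shares called, 23, 18 and 28 of 60, stand beside 31.9%, 24.7% and 38.4% of all genes tested. The medians of the 60 were -0.04, -0.04 and -0.08. In psilocybin-light against psilocybin-dark 3 of 60 were lower and none higher, beside 6.38% of all genes called. For the interaction 6 of 60 were negative and none positive, beside 8.75% of all genes called. Leaving out the 4 libraries with high cerebellum sums, the counts against dark were 15 higher and 21 lower, 17 and 21, and 14 and 25, or 36, 38 and 39 of 60, beside 43.1%, 38.3% and 48.2% of all genes. In both fits each share of the 60 in the comparisons with dark lay above that of all genes, and by more without the 4 libraries. The lists were chosen with earlier results of these data known, and whether they differ from other genes was not tested.

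Among the 18 genes of Gq coupling and scaffolds, which serve Grm5, 6 were higher and 1 lower in light against dark, 6 and 1 in psilocybin-dark and 5 and 4 in psilocybin-light against dark. Homer1, the scaffold whose short activity-induced form releases mGlu5 from its partners, was higher in all 3, at 1.34, 1.59 and 1.14 (log2 fold change, largest edgeR adjusted p = 0.00124), with an interaction of -1.78. Dagla, which makes the endocannabinoid 2-arachidonoylglycerol downstream of the receptor, was higher at 0.43, 0.49 and 0.64, and Plcb1, a phospholipase C, at 0.44, 0.58 and 0.57.

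Among the 18 genes of Gi/o coupling, adenylyl cyclases and RGS proteins, which serve groups II and III, 3 were higher and 5 lower with light, 4 and 3 in psilocybin-dark and 4 and 6 in psilocybin-light against dark. Rgs4, which speeds the switching off of Gi/o and Gq proteins, was higher in all 3 at 1.30, 1.36 and 1.26. Adcy2, an adenylyl cyclase, was higher at 0.43, 0.46 and 0.50, and Rgs7, a Gi/o regulator of neurons, at 0.33, 0.34 and 0.40. Adcy8, a calcium-stimulated cyclase, was lower at -0.35, -0.24 and -0.49.

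Of 10 partners and desensitizing proteins, 2 were higher and 2 lower with light, 2 and 0 in psilocybin-dark and 2 and 2 in psilocybin-light against dark. Grk2 and Arrb1, a receptor kinase and an arrestin that end signalling, were higher in all 3, Grk2 at 0.36, 0.32 and 0.29 and Arrb1 at 0.24, 0.23 and 0.27. The scaffold Grip1 read -0.45, -0.25 and -0.36 and the kinase Grk3 -0.37, -0.28 and -0.44, both lower in light and psilocybin-light mice and neither passing in psilocybin-dark mice. When the 4 libraries were left out both passed in psilocybin-dark mice too, Grip1 at -0.46 (adjusted p = 0.000105) and Grk3 at -0.47 (adjusted p = 1.64e-05).

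Of 12 genes for supply and clearance of glutamate and NAAG, 1 was higher and 2 lower with light, 0 and 2 in psilocybin-dark and 0 and 4 in psilocybin-light against dark. Folh1, the enzyme that splits NAAG, was lower in all 3 at -0.86, -0.76 and -0.96, and Rimkla, an enzyme that makes it, at -0.91, -0.98 and -0.91, or -0.58, -0.65 and -0.50 without the 4 libraries. Rimklb, which makes NAAG as well and was added after its values were seen, read -0.14, -0.16 and -0.22 and passed in psilocybin-light mice alone. Leaving those 4 libraries out, Rimklb passed in all 3, at -0.21, -0.25 and -0.31 (edgeR, largest adjusted p = 0.00514). Glul, the astrocytic glutamine synthetase, was higher with light (0.21) and read 0.13 and 0.07 in the psilocybin groups without passing. The glutamate transporter Slc1a3 read -0.23, -0.20 and -0.41, passing in psilocybin-light mice alone, where it read -0.24 without the 4 libraries and still passed. Htr2a, the receptor of psilocin, read 0.01, 0.40 and 0.33 and did not pass (edgeR, smallest adjusted p = 0.172).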

How the data were processed

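The authors trimmed reads with cutadapt, dropping those under 30 bases, aligned them with STAR and counted reads per gene with HTSeq. The deposited values are raw counts per gene and library. The study's methods name GRCm39 and the processing notes mm10, so gene coordinates are GRCm39 (GENCODE vM39, matched by gene identifier) and promoter coordinates GRCm38.p6. All 60 pairs of libraries within a group differed by more than sampling noise.

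Counts were fitted with edgeR 4.0.16 (R 4.3.3; TMM, quasi-likelihood test) over all 24 libraries and 14464 genes (kept where any library had 30 counts or more), and p-values adjusted by Benjamini-Hochberg over all genes tested, threshold 0.05. Normalized counts use TMM library sizes at a mean of 16058300. The script was first checked on simulated counts. Exact permutation tests are two-sided over 924 splits and unadjusted. DESeq2 1.42.0, a surrogate variable (sva 3.50.0), the sample labels' light exposure, marker covariates and left-out libraries were alternatives. The receptor genes and gene lists were chosen with earlier results of these data known. Named pathway genes are the 4 per list with the smallest p in light against dark. Some items that this rule names are not reported here. No batch is given in the labels.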

Additional observations from a re-analysis of the deposited data

Results flagged for a closer look

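Grm4 in light mouse 18 (1858 normalized counts) and in psilocybin-dark mouse 12 (3111) stood far above the other 5 mice of their group, at 0.872 and 0.954 of the group's range by Dixon's ratio, above the critical value for 6 samples. Chance flags about 1 in 20 of the 24 groups of values screened. Both are libraries with high cerebellum marker sums, and Grm4 passed in no comparison with dark either without these libraries or with the cerebellum markers as a covariate. For Grm3 the change with light differed between psilocybin and vehicle mice, with an interaction of -0.55 on the log2 scale (edgeR adjusted p = 0.0364). The call was held in 10 of 24 fits that left out 1 mouse, and it was lost without the filter on low counts (adjusted p = 0.0593) and with the hippocampus (0.748) or the amygdala and hypothalamus markers (0.451) as a covariate.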

How the results depend on the processing

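Besides leaving out 1 mouse and the sample labels' grouping, 395 log2 fold changes of the receptor genes kept their direction and their side of the threshold and 54 reversed. Of those that kept their direction, 21 lost a call and 28 gained one. Reversed values that also lost or gained a call are counted as reversed only. The common coefficient of biological variation was 0.182. No paired analysis was possible because the replicate numbers run from 1 to 24 and no number is shared between groups. Fitting the compared groups alone left 0 calls in light and in psilocybin-light against dark (21.4% and 30.1% of all genes called), and no filter left 1 in light against dark and 0 for the interaction (12.7% and 2.39%). The 4 libraries left out and the amygdala and hypothalamus covariate were alternatives chosen after seeing the data. The cause of each change was not tested.

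With the light exposure of the sample labels, light against dark became -0.21 for Grm2, -0.31 for Grm3, 1.2 for Grm4, 0.58 for Grm5, 0.091 for Grm7 and -0.069 for Grm8. Psilocybin-dark against dark became -0.16, -0.035, 0.067 and -0.014 for Grm2, Grm3, Grm5 and Grm8, and psilocybin-light against dark -0.083, 0.30, 0.25 and 0.025 for Grm2, Grm4, Grm5 and Grm7. Psilocybin-light against light became 0.12, 0.52, -0.33 and 0.15 for Grm2, Grm3, Grm5 and Grm8. Psilocybin-light against psilocybin-dark became 0.080, 0.24, 0.89, 0.18, 0.094 and 0.095, and the interaction 0.29, 0.55, -0.31, -0.40, 0.0027 and 0.16, in gene order. Psilocybin-dark against light became 0.044, -1.79, -0.51 and -0.16 for Grm2, Grm4, Grm5 and Grm7. The calls were 0 in both comparisons of psilocybin mice with dark, 1 in psilocybin-light against light and 2 in psilocybin-dark against light, where 0.608%, 0.456%, 24.7% and 38.4% of all genes were called.

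With the amygdala and hypothalamus covariate, Grm2 turned to -0.50, -0.57 and -0.69, Grm8 to -0.091, -0.014 and -0.11 and Grm7 to 0.066, 0.093 and 0.0042 against dark, Grm5 to 0.16 and 0.0081 in the psilocybin groups, and the interaction to 0.38 for Grm2 and -0.076 for Grm5. Calls were 0, 0 and 1 against dark and 0 for the interaction, beside 10.5%, 0.546%, 15.8% and 0.180% of all genes. With the hippocampus covariate all 4 of these counts were 0, beside 2.65%, 0.00%, 3.84% and 0.00% of all genes, and the reversed values were -0.0090 and -0.089 for Grm3 (light, psilocybin-light), -0.069 and -0.19 for Grm2 (psilocybin groups) and -0.022 for Grm8. With the cerebellum covariate Grm4 turned to 0.54, 0.32 and 0.43 against dark, 0.11 in psilocybin-light against psilocybin-dark, -0.22 in psilocybin-dark against light and -0.43 for the interaction, Grm8 to -0.076 and -0.13, Grm5 to -0.0039 in psilocybin-light against light and Grm7 to 0.059 for the interaction. Calls were 2 in psilocybin-dark against dark and 1 in psilocybin-light against psilocybin-dark (26.9% and 12.2% of all genes).

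Without dark mice 1 and 6, Grm4 turned to 0.51, 0.82 and -1.40 (light, psilocybin-dark, interaction), Grm8 to -0.076 and -0.089 and Grm7 to 0.18 for the interaction, with 3 calls in psilocybin-dark against dark and 2 for the interaction (33.6% and 21.6% of all genes). Without the 4 libraries, Grm4 turned to 0.041, -0.088 and -0.070 (light against dark, psilocybin-dark against light, interaction), Grm8 to -0.054 and -0.087, Grm2 to -0.0089 and 0.024 and Grm7 to 0.13, with 3, 1 and 2 calls in psilocybin-dark against dark, psilocybin-light against psilocybin-dark and the interaction (38.3%, 17.2% and 27.0%). Without dark mice 2 to 5, Grm5 turned to 0.26, 0.51 and 0.34 and -0.43 (interaction) and Grm7 to 0.37, 0.39 and 0.30, with 4, 5, 5 and 4 calls (43.4%, 41.2%, 47.4% and 28.0%). With 1 surrogate variable Grm8 turned to -0.014 and Grm5 to -0.028, with 2, 1 and 2 calls in psilocybin-dark against dark, psilocybin-light against psilocybin-dark and the interaction (34.0%, 13.4% and 19.8%). DESeq2's test and its size factors gave Grm7 0.0051 and 0.0062 for the interaction, and filterByExpr 0.0046.

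Leaving out each mouse in turn gave 1 to 2, 1 to 2 and 1 to 3 calls against dark and 0 to 1 for the interaction. Values that crossed 0 were Grm2 at -0.023 to 0.34 in psilocybin-dark and -0.095 to 0.26 in psilocybin-light against dark, Grm7 at -0.15 to 0.0036 in psilocybin-dark and Grm8 at -0.0097 to 0.27 in psilocybin-light against dark. The others were Grm8 at -0.058 to 0.024 in psilocybin-light against light, Grm2 at -0.14 to 0.017 in psilocybin-light against psilocybin-dark, Grm4 at -0.55 to 0.77 and Grm7 at -0.0078 to 0.055 in psilocybin-dark against light, and Grm4 at -0.47 to 1.16 and Grm7 at -0.072 to 0.084 for the interaction. By the length of the longest transcript the levels per kilobase were 10.3 for Grm3, 14.4 for Grm7 and 4.16 for Grm8.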

Other observations

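Across the 24 libraries, Pearson correlations of log2 levels were computed for each receptor gene with 11110 genes of a mean count of at least 100, as a description only, since the points share library and tissue content. The 3 genes most like Grm5 were Astn1 (0.96), Chd3 (0.96) and Wdr7 (0.95), and those most like Grm7 were Rapgef5 (0.93), Rapgef2 (0.91) and Lonrf1 (0.90). Grm3 was most like Rasal2 (0.92), Etv5 (0.91) and Extl3 (0.91), Grm2 like Necab1 (0.85), Rxfp1 (0.85) and Cdh8 (0.84), and Grm8 like Chrna4 (0.81), Chsy3 (0.78) and Pde4a (0.75). Grm4 was most like Gria4 (0.97), Rgs8 (0.97) and Inpp5a (0.97), which fell to 0.75, 0.69 and 0.62 over the 20 libraries without high cerebellum sums. Within the family Grm5 and Grm7 ran most closely together, at 0.86 over 24 libraries and 0.84 over those 20. Grm2 and Grm4 went from 0.19 over 24 libraries to 0.79 over 20.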
